A study of Homo sapiens with 12 samples.

Results

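Collagens are secreted matrix proteins whose chains, each the product of a COL gene, wind together into a helix before the cell exports them. On the Affymetrix U133 Plus 2.0 array, 112 of 54675 probe sets (sets of short probes that together read a transcript) carried a single gene symbol written as COL, a number, A and a number. They stood for 43 collagen genes, 35 of them with several probe sets and 8 with 1, and COL6A1 had the most, 8. The measured cells were the human multiple myeloma lines MM.1S, MM.1R and INA-6 after 24 hours with HS-5 cells, a stromal line from human bone marrow, set against the same lines kept alone. All 3 lines stably expressed green fluorescent protein (GFP) in both conditions, and cell sorting for GFP took the myeloma cells out of the coculture, while the sorted HS-5 cells were not analysed here. The labels do not say whether the cells kept alone were sorted too, so sorting and coculture cannot be told apart in the values below. MM.1R descends from the dexamethasone-sensitive MM.1S and is resistant to that steroid, and INA-6 depends on interleukin 6. Each of the 6 groups (line by culture condition) was hybridised on 2 arrays, technical replicates by the series text, so each group is 1 cell line in 1 stated culture and the stroma is a single line.

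Collagens differ by what their chains build. Fibrillar chains such as those of types I, III and V form the banded fibres of connective tissue, type IV chains form the sheet of basement membranes, and type VI chains form beaded filaments around cells. Fibril-associated chains decorate fibres, type VII anchors epithelia, and a small group stays in the cell membrane. Fibroblasts and marrow stromal cells are known as the main makers of fibrillar and type VI collagen in the marrow, while plasma cells mainly secrete immunoglobulin.

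The values are intensities on a linear scale as the authors deposited them, and the median intensity of an array lay between 19.78 and 24.09. The 75th percentile of an array varied more, between 69.93 and 128.51. As a sign of RNA and labelling quality, ACTB control signal at the 3′ end over that at the 5′ end was 5.24 and 4.97 in MM.1S coculture, against 22.7 and 22.0 in MM.1S alone. It was 5.01 and 5.41 in MM.1R coculture and 30.6 and 32.2 in MM.1R alone, and it ran the other way in INA-6, with 32.4 and 31.7 after coculture and 5.72 and 5.31 alone. Over all probe sets, r between duplicates was 0.834 in INA-6 alone and 0.937 to 0.983 in the 5 other groups. Of the 26 probe sets of 12 myeloma marker genes, 17 lay above the array median in cells alone in all 3 lines, against 29.4% of all probe sets. In the test common to the lines, 0 of 7 macrophage and 0 of 11 endothelial probe sets rose. Only 0.32% of all probe sets rose in that test, so lists this short cannot show whether such cells were absent. The 73 probe sets of 26 stromal marker genes summed to 16732 and 16778 in MM.1S coculture, against 3303 and 3424 alone, to 33835 and 34097 in MM.1R coculture, against 4605 and 4762 alone, and to 15766 and 15865 in INA-6 coculture, against 6230 and 6813 alone. Of the 73 probe sets, 21, from 13 of these 26 genes, were higher without overlap in each of the 3 lines, against 12.8% of all probe sets. LUM and VCAM1 stayed below the array median in all 12 arrays. The 26 myeloma marker probe sets summed to 34736 and 35031 in MM.1S coculture, against 18375 and 18396 alone. Their sums were 34690 and 35088 in MM.1R coculture, against 26691 and 27336 alone. In INA-6 they were 27591 and 27675 after coculture, against 30055 and 32387 alone. The part of HS-5 RNA in the sorted cells, and that of the ACTB ratios, in the collagen values was not tested.

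After coculture 3 chains of type VI, both chains of type I and 1 chain of type V stood far above their level in cells alone in all 3 lines, each on 1 or more probe sets. In the test common to the lines (limma on log2 of intensity + 5, with the lines as replicates and Benjamini-Hochberg adjustment over 54612 probe sets), 7 of 112 collagen probe sets from 6 genes rose and 0 fell. That is 6.25%, against 0.32% of all probe sets that rose and 0.00183% that fell. The 6 genes were COL6A1, COL6A2 and COL6A3 of type VI, COL1A1 and COL1A2 of type I, and COL5A1 of type V. At an unadjusted p under 0.05, 30 collagen probe sets passed (26.8%), against 16.3% of all. The median change over the 112 was -0.05, against -0.04 over all probe sets, and 53 of the 112 lay above 0. Without replicate 1 of INA-6 alone, 0 of the 112 passed, and with 16 in place of 5 added before the log, 0 passed as well, with all 7 changes still above 0. With quantile normalization 4 passed, without COL1A2, COL5A1 and the COL1A1 probe set 202310_s_at. In bulk samples such as these, fewer cells of a type and less RNA per cell cannot be told apart.

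**Figure D1:**
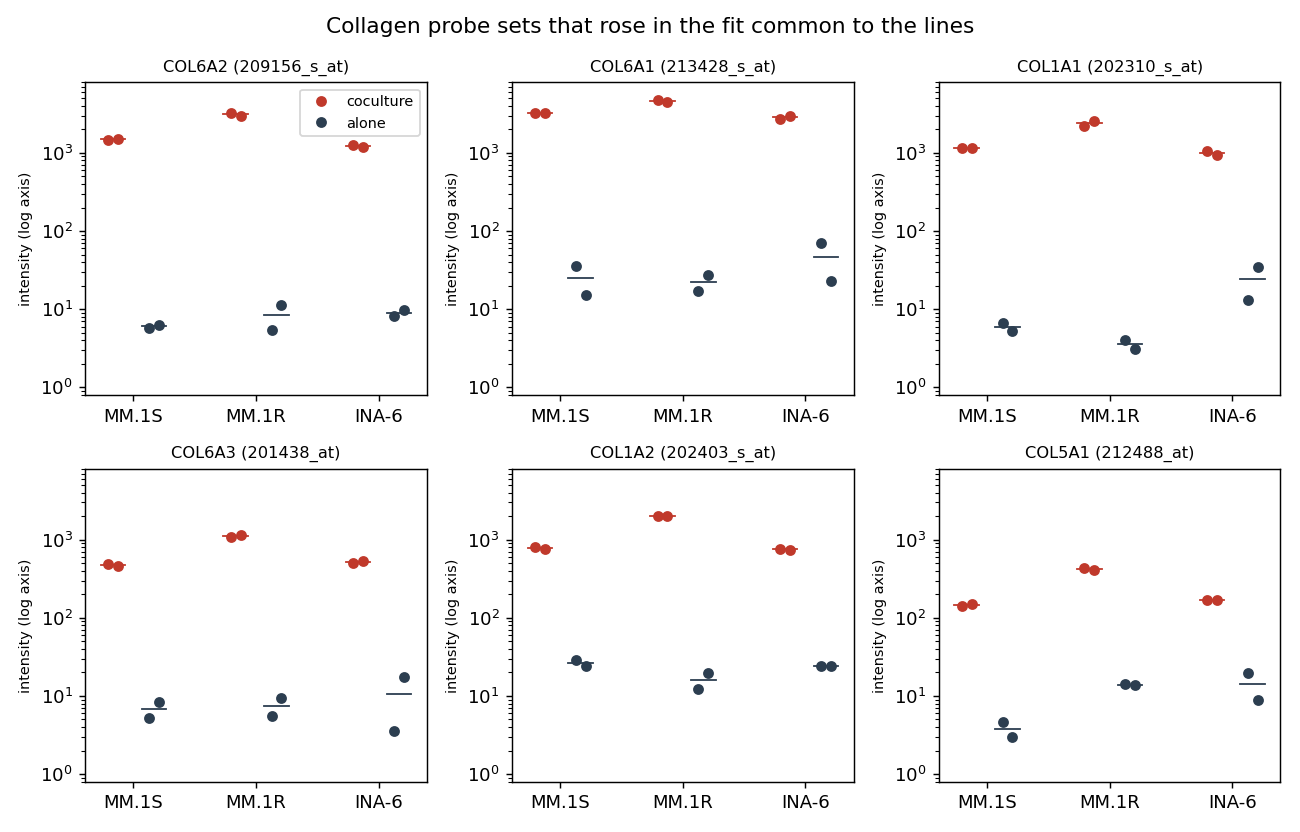
Intensity on a log axis of 1 probe set for each of the 6 collagen genes that rose in the test common to the lines. Points are single arrays (2 a group, coculture left of alone within each line) and bars are group means; every coculture array lies above every array of cells alone.

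Type VI collagen gave the 2 largest rises of the 112 probe sets, COL6A2 and COL6A1. Its subunits join as one chain of each of COL6A1, COL6A2 and COL6A3 before assembly into filaments. COL6A2 was read by 209156_s_at. It read 1484 and 1517 in MM.1S coculture, against 5.80 and 6.34 in MM.1S alone. The values were 3274 and 2979.5 in MM.1R coculture, against 5.45 and 11.2 in MM.1R alone. INA-6 gave 1254 and 1196 after coculture, against 8.30 and 9.83 alone. The groups did not overlap in any line, MM.1R coculture was the highest, and the change common to the lines was 7.15 ± 0.38 (log2, SE, n = 6 averaged values; limma adjusted p = 0.0246).

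COL6A1 was read by 213428_s_at. It read 3224 and 3211 in MM.1S coculture, against 35.4 and 15.2 in MM.1S alone. The values were 4772 and 4523 in MM.1R coculture, against 17.0 and 27.5 in MM.1R alone. INA-6 gave 2749.9 and 2968 after coculture, against 69.4 and 22.8 alone. The groups were again apart in each line, and INA-6 alone had the largest ratio between duplicates, with a common change of 6.75 ± 0.38 (limma adjusted p = 0.0246). COL6A3, the long chain of the trimer, had 1 probe set, 201438_at. It read 490.0 and 457 in MM.1S coculture, against 5.22 and 8.37 in MM.1S alone. The values were 1075 and 1131 in MM.1R coculture, against 5.50 and 9.36 in MM.1R alone. INA-6 gave 503 and 531 after coculture, against 3.54 and 17.6 alone. It rose by 5.69 ± 0.37 (limma adjusted p = 0.0246). All 6 of its arrays of cells alone were below the array median, and all 6 coculture arrays were above it. The other type VI genes, COL6A5 and COL6A6, which are paralogs of COL6A3, had 4 probe sets with common changes from -0.50 to -0.08, none past the test.

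COL6A1 and COL6A2 lie next to each other on chromosome 21. The 150 bases before the start are shown for 3 genes that rose and for COL7A1, whose lines differed most, to set their start regions side by side. Each is read 5′ to 3′ on the strand of its gene, from RefSeq (GRCh38.p14). The capitals mark motifs searched on both strands. One is TATAAA, the TATA box that the general initiation machinery can bind. Another is GGGCGG, the GC box known to bind SP1 and its relatives, and the last is CCAAT. COL6A2 lies at chr21:46097962-46098111 (plus strand), COL6A3 at chr2:237414165-237414314 (minus), COL5A1 at chr9:134641653-134641802 (plus) and COL7A1 at chr3:48595330-48595479 (minus).
COL6A2: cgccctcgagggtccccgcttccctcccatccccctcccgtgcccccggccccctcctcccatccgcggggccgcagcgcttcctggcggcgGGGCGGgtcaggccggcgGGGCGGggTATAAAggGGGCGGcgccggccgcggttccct
COL6A3: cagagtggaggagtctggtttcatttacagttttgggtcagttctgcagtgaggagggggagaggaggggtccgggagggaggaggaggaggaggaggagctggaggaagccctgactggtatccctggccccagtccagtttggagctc
COL5A1: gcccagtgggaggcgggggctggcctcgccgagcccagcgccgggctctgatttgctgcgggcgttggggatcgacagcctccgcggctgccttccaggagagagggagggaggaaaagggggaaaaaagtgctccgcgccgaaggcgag
COL7A1: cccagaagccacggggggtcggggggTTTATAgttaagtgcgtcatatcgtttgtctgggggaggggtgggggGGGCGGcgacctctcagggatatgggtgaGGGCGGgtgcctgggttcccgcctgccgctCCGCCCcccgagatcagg
Counted on either strand, 7.0% of 27305 such windows hold TATAAA, 24.4% hold CCAAT and 36.7% hold GGGCGG. Of the 31 collagen genes with a window in the RefSeq table, 3, 6 and 15 do. The COL6A2 window holds 3 GC boxes and 1 TATAAA, which is on the strand of the gene and near the start. The COL7A1 window also holds 3 GC boxes. Its 1 TATAAA is on the opposite strand (printed as TTTATA), near the end farthest from the start. The windows of COL6A3 and COL5A1 hold none of the 3 motifs.

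Type I collagen, the main protein of bone and tendon, is made of COL1A1 and COL1A2 chains. COL1A1 was read by 202310_s_at among others. It read 1142 and 1161 in MM.1S coculture, against 6.71 and 5.24 in MM.1S alone. The values were 2204 and 2565 in MM.1R coculture, against 4.07 and 3.07 in MM.1R alone. INA-6 gave 1070.0 and 942 after coculture, against 13.04 and 35.0 alone. Every coculture array lay above every array of cells alone, and the change was 6.69 ± 0.57 (log2, SE, n = 6 averaged values; limma adjusted p = 0.0301). A second COL1A1 probe set, 1556499_s_at, ran between 1106 and 3001 in the coculture arrays, against 7.32 to 14.5 in the arrays of cells alone, with a change of 6.68 ± 0.41 (limma adjusted p = 0.0246).

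COL1A2 was read by 202403_s_at. It read 812 and 762 in MM.1S coculture, against 29.1 and 23.9 in MM.1S alone. The values were 2006 and 2000.4 in MM.1R coculture, against 12.3 and 19.6 in MM.1R alone. INA-6 gave 757 and 744 after coculture, against 24.5 and 24.2 alone. Cells alone lay above the array median on both arrays in MM.1S and INA-6, coculture arrays were all higher, and the change was 5.32 ± 0.48 (limma adjusted p = 0.0324). COL5A1, a chain that starts and trims the width of type I fibres, was read by 212488_at. It read 142 and 148 in MM.1S coculture, against 4.62 and 2.98 in MM.1S alone. The values were 436 and 404 in MM.1R coculture, against 14.02 and 13.8 in MM.1R alone. INA-6 gave 170.2 and 169 after coculture, against 19.8 and 8.80 alone. The groups did not overlap in any line and the change was 3.94 ± 0.36 (limma adjusted p = 0.0324). Without replicate 2 of INA-6 alone its adjusted p was 0.0631.

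The other fibrillar chains of skin and vessels did not pass the test, and are named here after their values were seen. COL5A2, the partner of COL5A1, lay between 76.5 and 377 in the coculture arrays, against 10.9 to 38.6 in the arrays of cells alone on 221729_at, with a change of 2.85 ± 0.51 (limma adjusted p = 0.108). COL3A1, the chain of the fine fibres of soft tissue and a chromosome 2 neighbour of COL5A2, lay between 45.0 and 335 in the coculture arrays, against 5.99 to 44.5 in the arrays of cells alone on 215076_s_at, with a change of 2.79 ± 0.54 (limma adjusted p = 0.121). Both were called higher in each of the 3 lines when each line was tested by itself, and neither passed the common test. COL27A1, a fibrillar chain of cartilage, had changes within the lines of 1.65 ± 0.30 in MM.1S, 3.16 ± 0.30 in MM.1R and 1.70 ± 0.30 in INA-6 on 225288_at (log2, SE, 2 arrays a group). COL24A1, another minor fibrillar chain, gave 73.7 and 72.7 in MM.1S coculture, against 206 and 214 in MM.1S alone, and 186 and 188 in INA-6 coculture, against 42.8 and 9.38 in INA-6 alone. It was lower after coculture in MM.1S and higher in INA-6, with changes of -1.46 ± 0.46 in MM.1S, 0.67 ± 0.46 in MM.1R and 2.87 ± 0.46 in INA-6. The test within the line passed in INA-6 (limma adjusted p = 0.00177) and not in MM.1S (limma adjusted p = 0.0653). COL2A1, the cartilage chain, and COL11A1 had no probe set past the common test.

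**Figure D2:**
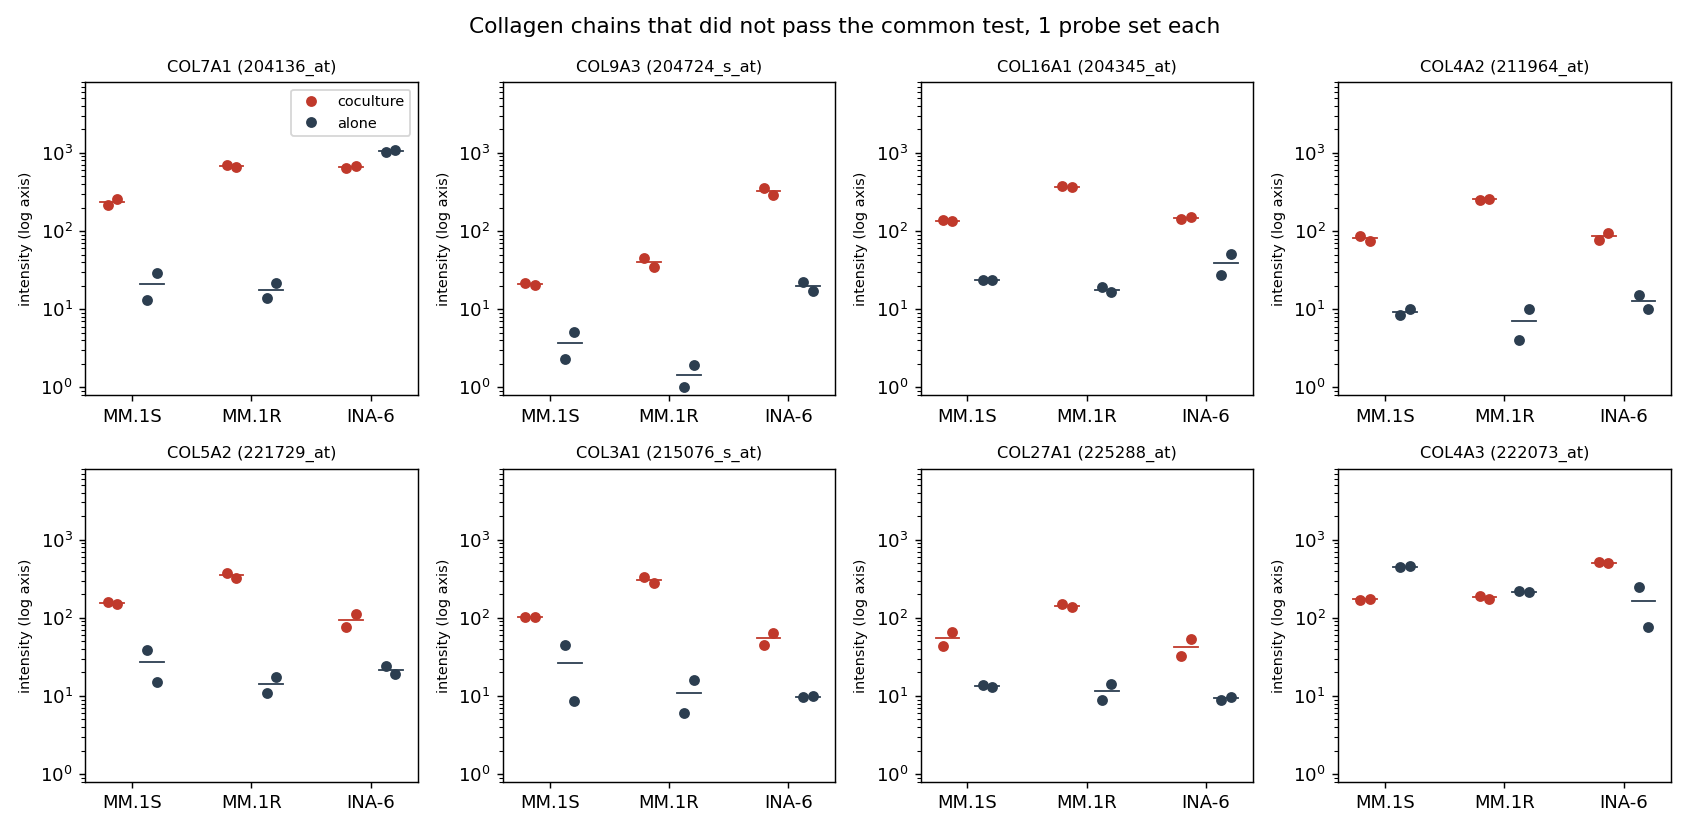
Intensity on a log axis of 1 probe set for each of 8 collagen genes that did not pass the test common to the lines, chosen after their values were seen. Points are single arrays (2 a group, coculture left of alone) and bars are group means. COL7A1 is high in INA-6 with and without stroma. COL4A3 is lower after coculture in MM.1S, where the test within the line did not pass, and higher in INA-6.

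In the basement membrane group of 6 type IV genes and 19 probe sets, 0 passed the common test. COL4A2, a ubiquitous chain of the type IV sheet, was named after its values were seen and had coculture values apart from those alone on 211964_at. It read 87.1 and 74.6 in MM.1S coculture, against 8.37 and 10.1 in MM.1S alone. The values were 249.8 and 257 in MM.1R coculture, against 4.0 and 9.95 in MM.1R alone. INA-6 gave 77.0 and 95.6 after coculture, against 15.3 and 10.2 alone. It changed by 3.15 ± 0.49 (limma adjusted p = 0.0896), a value that missed the threshold, although the coculture arrays were higher in each line. COL4A1, its usual partner in the trimer, gave on 211980_at 78.3 and 80.7 in MM.1S coculture, against 54.7 and 29.1 in MM.1S alone. The values were 159 and 188 in MM.1R coculture, against 34.1 and 40.9 in MM.1R alone, and 73.7 and 78.3 in INA-6 coculture, against 59.1 and 184 in INA-6 alone. The groups were apart in MM.1S and MM.1R, where coculture was higher, and overlapped in INA-6, whose duplicates alone differed widely.

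COL4A1 and COL4A2 share a start region and are read in opposite directions, 126 bases apart. The bases between their starts are shown because their changes are set side by side above, at chr13:110307158-110307283 on the strand of COL4A2 (RefSeq, GRCh38.p14), with the same motifs in capitals.
COL4A1-COL4A2: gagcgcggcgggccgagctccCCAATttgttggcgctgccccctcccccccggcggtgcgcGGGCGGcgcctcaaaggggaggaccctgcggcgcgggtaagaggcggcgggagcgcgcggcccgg
COL4A3 and COL4A4, likewise head to head on chromosome 2 with 418 bases between starts, make the basement membrane of kidney and ear. COL4A3 was above the array median in cells alone in all 3 lines on 2 of its 7 probe sets. On 222073_at it gave 171 and 175 in MM.1S coculture, against 447 and 456 in MM.1S alone. INA-6 gave 512 and 504 after coculture, against 251 and 76.6 alone, and MM.1R gave 193 and 173, against 218 and 211. The line effects were -1.36 ± 0.44 in MM.1S, -0.23 ± 0.44 in MM.1R and 1.83 ± 0.44 in INA-6, so MM.1S was lower after coculture and INA-6 higher, without overlap in either line. The test within the line passed in INA-6 (limma adjusted p = 0.0127) and not in MM.1S (limma adjusted p = 0.0691). On 216898_s_at, the other probe set read alone, INA-6 changed by -0.81 ± 0.46 (limma adjusted p = 0.217). COL4A5 (213110_s_at) gave 195 and 197 in INA-6 coculture, against 38.4 and 5.92 in INA-6 alone, with changes of -0.44 ± 0.57 in MM.1S, 0.09 ± 0.57 in MM.1R and 3.21 ± 0.57 in INA-6. Its X-chromosome neighbour COL4A6, with 379 bases between the starts, had 3 probe sets with common changes from -0.58 to -0.42, none past the test.

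COL7A1, the chain of anchoring fibrils, split the lines. It was read by 204136_at and described after its values were seen. It read 215 and 257 in MM.1S coculture, against 13.1 and 29.4 in MM.1S alone. The values were 699.6 and 651 in MM.1R coculture, against 13.96 and 21.4 in MM.1R alone. INA-6 gave 633 and 675 after coculture, against 1016 and 1079 alone. Coculture was high and cells alone low in MM.1S and MM.1R, while in INA-6 both conditions were high and coculture was the lower. The changes were 3.26 ± 0.32 in MM.1S, 4.92 ± 0.32 in MM.1R and -0.68 ± 0.32 in INA-6, and the INA-6 effect minus the mean of the MM.1 lines was -4.77 ± 0.39 (limma adjusted p = 0.000113). The other COL7A1 probe set, 217312_s_at, lay between 45.1 and 112 in the coculture arrays, against 2.60 to 27.2 in the arrays of cells alone, and had changes of 1.77 ± 0.56 in MM.1S, 2.95 ± 0.56 in MM.1R and 1.73 ± 0.56 in INA-6, so the 2 probe sets disagreed in INA-6.

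Among the fibril-associated chains, COL9A3, which decorates cartilage fibres, was also described after its values were seen. It read 21.7 and 20.2 in MM.1S coculture, against 2.33 and 5.11 in MM.1S alone. The values were 44.7 and 34.7 in MM.1R coculture, against 1.0 and 1.91 in MM.1R alone. INA-6 gave 361 and 291 after coculture, against 22.2 and 17.0 alone. INA-6 coculture was the highest group, and each line was higher after coculture without overlap. The common change was 2.71 ± 0.47 (limma adjusted p = 0.103). The difference of INA-6 from the MM.1 lines was 1.56 ± 0.31 (limma adjusted p = 0.00768). COL16A1, a minor fibril-associated chain, lay between 133 and 376 in the coculture arrays, against 16.6 to 50.3 in the arrays of cells alone, with a common change of 2.72 ± 0.49 (limma adjusted p = 0.108). COL9A2, a partner of COL9A3 in type IX, gave 47.3 and 42.8 in INA-6 coculture, against 186 and 227 in INA-6 alone on 213622_at, lower in INA-6 coculture, with changes of 0.09 ± 0.26 in MM.1S, -0.31 ± 0.26 in MM.1R and -2.07 ± 0.26 in INA-6. COL12A1, which binds type I fibres, had 5 probe sets with common changes from -1.04 to 1.68, and none passed. The membrane chains (COL13A1, COL23A1 and COL25A1), the multiplexins (COL15A1 and COL18A1), the short-chain networks (COL8A1, COL8A2 and COL10A1) and COL26A1 and COL28A1 had 21 probe sets, and none passed the common test.

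When each line was tested by itself, in a limma fit of all 12 arrays whose p-values measure only the spread between technical duplicates, more chains passed. In MM.1S, 24 of 112 collagen probe sets from 15 genes rose and 4 fell, against 11.9% of all probe sets that rose and 5.28% that fell. In MM.1R, 33 from 18 genes rose and 0 fell, against 5.72% and 1.64% of all. In INA-6, 29 from 20 genes rose and 10 fell, against 22.1% and 9.82% of all. As shares these are 21.4%, 29.5% and 25.9% higher, so the share in INA-6 was close to that of all probe sets. The total of 39 calls in INA-6 moved to 24 without replicate 1 or replicate 2 of INA-6 coculture. The median change over the 112 was -0.05 in MM.1S, 0.22 in MM.1R and -0.02 in INA-6, against -0.07, 0 and 0 over all probe sets.

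Called higher in each of the 3 lines were 19 collagen probe sets of 12 genes (17.0%), against 2.75% of all probe sets. They were COL1A1, COL1A2, COL3A1, COL5A1, COL5A2 and COL27A1 of the fibrillar chains, COL6A1, COL6A2 and COL6A3 of type VI, COL4A2 of type IV, and COL9A3 and COL16A1 of the fibril-associated chains. The 4 lower in MM.1S were probe sets of COL11A2 (-1.26), COL14A1 (-0.98), COL20A1 (-1.48) and COL27A1 (-2.02). The 10 lower in INA-6 belonged to 9 genes, among them COL25A1 (-3.08), COL20A1 (-2.68) and COL9A2 (-2.07). Of COL20A1 another probe set, 232733_s_at, was called higher in INA-6 (1.76). In a count with no test, every coculture array lay above every array of cells alone for 24 collagen probe sets of 15 genes (21.4%), against 7.24% of all, and the reverse held for 0, against 1.46%.

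A chain was counted as read in a group when its probe set exceeded the array's median on both arrays. In cells alone, 13 of 112 collagen probe sets from 11 genes were read in all 3 lines (11.6%), against 29.4% of all probe sets. By line, 25 were read in MM.1S alone, 25 in MM.1R alone and 23 in INA-6 alone (22.3%, 22.3% and 20.5%), against 43.3%, 45.1% and 38.6% of all. The 11 genes were COL1A1, COL5A1, COL5A3, COL11A2 and COL27A1 (fibrillar), COL4A1, COL4A3, COL4A4 and COL4A6 (type IV), COL6A2, and COL9A2. With the 75th percentile of the array as the level, 4 of the 112 were left. In all, 25 of the 43 genes were read alone in at least 1 line on at least 1 probe set.

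Among the chains read alone, COL11A2, which shapes cartilage fibres, lay between 24.0 and 56.6 in the coculture arrays, against 28.5 to 106 in the arrays of cells alone on 213870_at, and between 61.5 and 102 in the coculture arrays, against 54.5 to 460.2 in the arrays of cells alone on 216993_s_at. COL5A3, a minor type V chain, lay between 26.3 and 52.6 in the coculture arrays, against 20.3 to 200.1 in the arrays of cells alone on 52255_s_at. COL27A1 lay between 25.7 and 44.8 in the coculture arrays, against 24.4 to 57.4 in the arrays of cells alone on 225292_at. Taken over all lines, each of these ranges overlapped between the conditions. Within lines, COL11A2 was called lower in MM.1S on 213870_at (-1.26 ± 0.31, limma adjusted p = 0.0229). It was called lower in INA-6 on 216993_s_at (-2.02 ± 0.43, limma adjusted p = 0.00718). COL5A3 was called lower in INA-6 on 52255_s_at (-1.60 ± 0.45, limma adjusted p = 0.0248). COL27A1 on 225292_at was called in no line. COL4A4 lay between 142 and 270.3 in the coculture arrays, against 159.8 to 519 in the arrays of cells alone on 229779_at. Within each line its coculture arrays were lower without overlap, and it was called lower in INA-6 (-0.84 ± 0.23, limma adjusted p = 0.0216). COL4A3 lay between 20.2 and 66.0 in the coculture arrays, against 33.6 to 133 in the arrays of cells alone on 216898_s_at and COL4A6 between 12.8 and 78.2 in the coculture arrays, against 24.0 to 189 in the arrays of cells alone on 213992_at. None of the 13 probe sets passed the common test.

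Read only after coculture, in both coculture arrays and neither array of cells alone of the same line, were 7 probe sets of 6 genes in all 3 lines (6.25%), against 0.43% of all. They were COL1A1 (1556499_s_at and 202311_s_at), COL5A1 (212488_at), COL27A1 (225288_at), COL4A2 (211964_at), COL6A2 (209156_s_at) and COL6A3 (201438_at). In single lines the count was 15 in MM.1S, 23 in MM.1R and 11 in INA-6 (13.4%, 20.5% and 9.82%), against 3.46%, 2.24% and 5.77% of all, and 28 probe sets of 19 genes were so in at least 1 line (25.0%), against 9.14% of all. In the other direction, 0 were read alone and not after coculture in all 3 lines, against 0.0531% of all. With the 75th percentile as the level, 11 probe sets were read only after coculture.

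Whether a gene counted as read alone depended on its probe set. Of the 6 genes read only after coculture, COL1A1, COL5A1, COL6A2 and COL27A1 (4 of 6) had another probe set read in cells alone in all 3 lines. COL4A2 and COL6A3 (2 of 6) had no probe set read alone in any line. In all, 18 of the 43 genes were read alone in no line, and 13 of these were not newly read after coculture in any line either: COL10A1, COL11A1, COL15A1, COL19A1, COL21A1, COL22A1, COL23A1, COL26A1, COL28A1, COL6A5, COL6A6, COL8A1 and COL9A1. Every probe set of COL19A1, COL6A5 and COL9A1 stayed below the median in all 12 arrays, and so did 27 of the 112 (24.1%), against 24.7% of all.

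**Figure D3:**
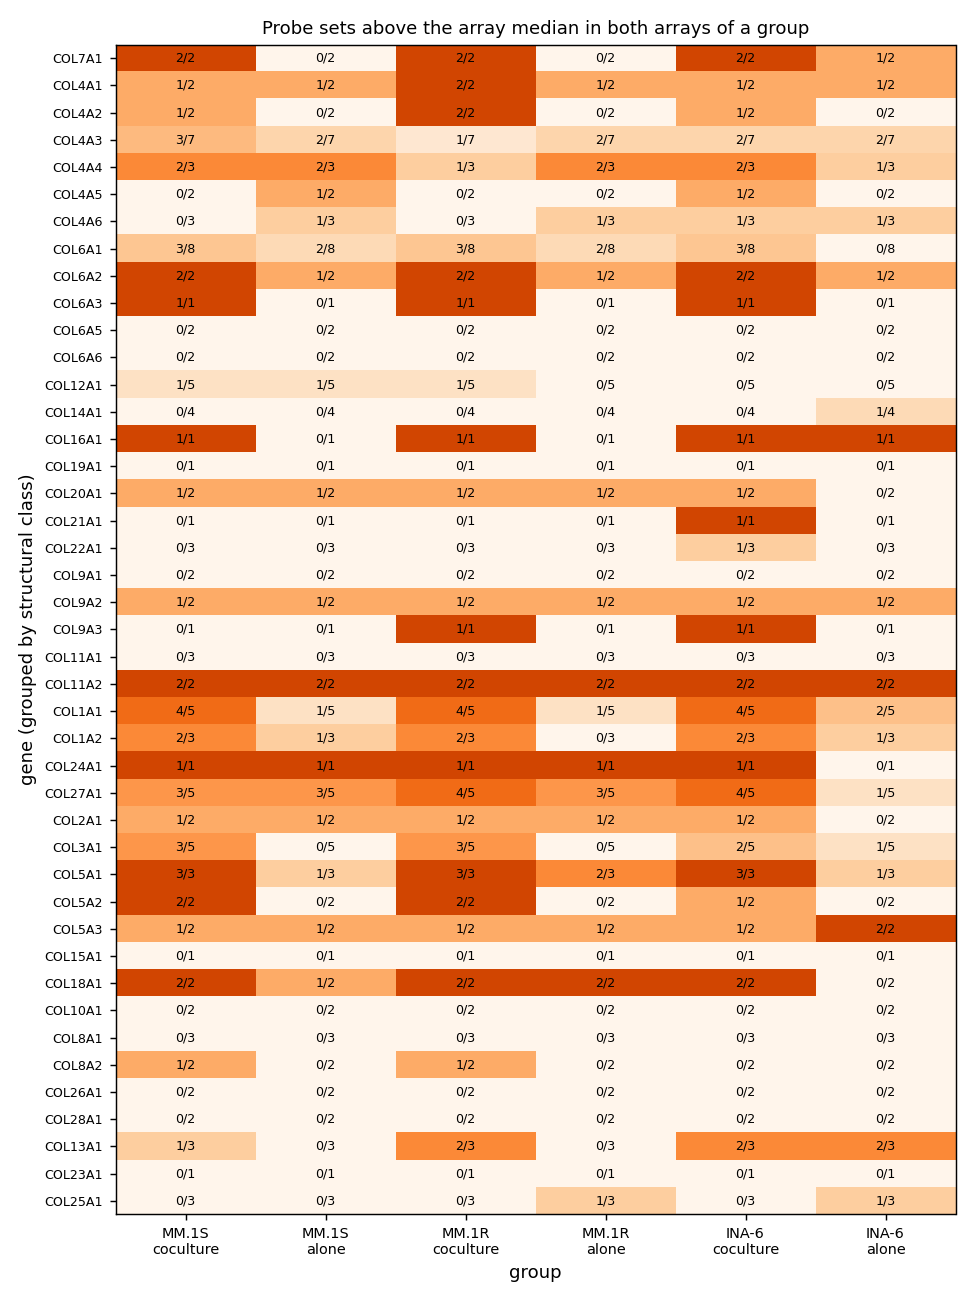
Number of probe sets of each of the 43 collagen genes that lay above the array median in both arrays of a group, of all probe sets of the gene, with darker fill for a higher share. Columns are the 6 groups with coculture left of alone in each line; COL6A3 and COL4A2 have no probe set read in cells alone, while COL11A2 is read in all 6 groups.

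Probe sets of the same gene disagreed in the common test. This held for 5 genes, COL1A1, COL1A2, COL5A1, COL6A1 and COL6A2. In each, at least 1 probe set passed (2 in COL1A1), and another had the opposite sign or lay over 2 log2 units away. COL1A1 ran from -0.96 (202312_s_at) to 6.69 (202310_s_at) over 5 probe sets, with 202311_s_at at 3.62 and 217430_x_at at -0.47. COL6A1 ran from -0.66 (212938_at) to 6.75 (213428_s_at) over 8, of which 1 passed. COL1A2 ran from 0.41 to 5.32 over 3, COL6A2 from 2.40 to 7.15 over 2, and COL5A1 from 0.83 to 3.94 over 3.

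Values per array are given for some of the probe sets that moved less. COL1A1 on 217430_x_at gave 278 and 317 in MM.1S coculture, against 256 and 354 in MM.1S alone, and 262 and 261 in INA-6 coculture, against 441 and 1817 in INA-6 alone. This probe set was above the array median in cells alone in all 3 lines, its groups overlapped in MM.1S, and its INA-6 duplicates alone differed widely. COL5A1 on 212489_at gave 164 and 161 in MM.1S coculture, against 150.4 and 153 in MM.1S alone, and 380.3 and 384 in MM.1R coculture, against 121 and 117 in MM.1R alone. INA-6 gave 179 and 169 after coculture, against 103 and 103 alone. It was above the array median in both conditions, every coculture array lay above every array of cells alone, and the changes were 0.10 ± 0.18 in MM.1S, 1.65 ± 0.18 in MM.1R and 0.73 ± 0.18 in INA-6. COL6A2 on 213290_at lay between 152 and 349 in the coculture arrays, against 24.4 to 58.0 in the arrays of cells alone, so both of its probe sets were higher after coculture, by 2.40 and 7.15 on the log2 scale.

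Within a single line, probe sets of a gene were called in opposite directions for 1 gene in MM.1S (COL27A1), 0 in MM.1R and 3 in INA-6 (COL1A1, COL4A4 and COL20A1). COL20A1 on 232733_s_at gave 71.8 and 71.2 in INA-6 coculture, against 9.48 and 30.1 in INA-6 alone, while 232638_at gave 3.73 and 3.11 in INA-6 coculture, against 16.1 and 132 in INA-6 alone. COL4A4 on 214602_at gave 84.6 and 107 in INA-6 coculture, against 3.82 and 2.71 in INA-6 alone, a change of 3.60 ± 0.48 (limma adjusted p = 0.000632), while 229779_at was lower there. Each of these probe sets had its INA-6 groups apart, in opposite directions.

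A further 5 genes without a call in the common test spread over 2 log2 units. COL27A1 ran from -0.88 to 2.17, COL3A1 from -0.09 to 2.79, COL12A1 from -1.04 to 1.68, COL8A2 from -0.57 to 1.93, and COL4A2 from 1.01 to 3.15. By the ending of the probe set name, which marks how specific its probes are, the 7 calls were 5 of 37 ending in _s_at (probes shared by several transcripts), 2 of 68 ending in _at, 0 of 6 ending in _x_at (probes that can match other sequences) and 0 of 1 ending in _a_at. The files used here do not place the probes along the transcripts.

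**Figure D4:**
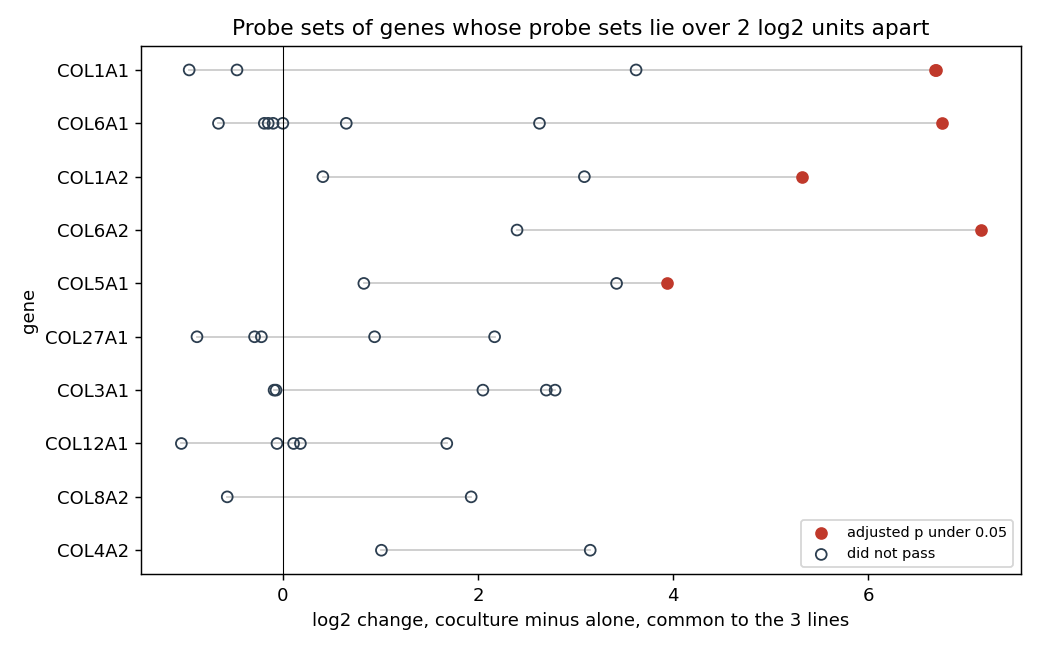
Change common to the 3 lines (log2, coculture minus alone) of each probe set of the 10 collagen genes whose probe sets lie over 2 log2 units apart. Each point is a probe set, filled where its adjusted p was under 0.05; the 2 called COL1A1 points nearly coincide at 6.68 and 6.69.

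The lines differed in how far the chains moved. In the difference of the coculture effect, MM.1R minus MM.1S, 0 collagen probe sets passed, against 0.0% of all, with 21 of 112 at an unadjusted p under 0.05 (18.8%), against 9.98% of all; without replicate 1 or replicate 2 of INA-6 alone, 11 passed. In INA-6 minus the mean of the MM.1 lines, 7 were higher (6.25%), against 14.5% of all, and 17 were lower (15.2%), against 7.99% of all. Without replicate 1 or 2 of INA-6 coculture, 15 passed in place of 24, and without replicate 1 of INA-6 alone, 46 passed. The highest differences were COL4A4 on 214602_at (3.93), COL4A5 (3.38) and COL24A1 (3.27), and the lowest were COL7A1 (-4.77) and COL3A1 on 201852_x_at (-2.79). These contrasts share arrays of cells alone and coculture with the tests within lines.

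The 25 collagen probe sets higher without overlap in each line, of 16 genes (22.3%), against 12.8% of all, were also set side by side between the coculture groups. Their MM.1R coculture mean was 1.44 to 3.14 times that of MM.1S coculture (median 2.33), and the MM.1R group was the highest of the 3 coculture groups for 24 of 25. For the 21 such probe sets of stromal markers it was 1.38 to 3.34 times (median 2.30), highest in 20 of 21, and for all 6966 such probe sets the median was 1.05, highest in 27.2%. The ratio of INA-6 to MM.1S coculture was 0.414 to 1.19 for the collagens without COL9A3, which stood at 15.6, with a median of 0.912. For the stromal markers it was 0.329 to 5.27 (median 0.918). The summed intensity of all 112 probe sets was 12868 and 12727 in MM.1S coculture, against 3475 and 3433 alone. It was 24348 and 24561 in MM.1R coculture, against 2376 and 2759 alone, and 13325 and 13337 in INA-6 coculture, against 5359 and 7236 alone.

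The genes that make, trim, bind and degrade collagen were read on lists chosen with earlier results of these data known. Of 30 probe sets of 13 genes that trim procollagen and cross-link fibres, 4 rose, 2 of them of LOX, and 0 fell: LOX, the oxidase that starts cross-links, by 4.59 ± 0.37 (limma adjusted p = 0.03), its relative LOXL2 by 4.30 ± 0.40 (limma adjusted p = 0.0337), and PCOLCE, an enhancer of procollagen trimming, by 3.67 ± 0.32 (limma adjusted p = 0.0317). LOX read 266 and 260.4 in MM.1S coculture, against 10.1 and 5.97 in MM.1S alone. Of 13 probe sets of 7 collagen-degrading proteases, 2 rose and 0 fell: the collagenase MMP1 by 8.28 ± 0.38 (limma adjusted p = 0.0246) and the membrane protease MMP14 by 4.70 ± 0.39 (limma adjusted p = 0.0301). Of all probe sets, 0.32% rose in the common test. The medians of these lists were -0.01 and -0.05, against -0.04 over all probe sets.

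Of 39 probe sets of 19 genes that fold and modify collagen chains, 0 passed the common test, with a median of 0.85. The largest changes were those of PLOD2, a lysyl hydroxylase, at 4.35 ± 0.50 (limma adjusted p = 0.0527), and SERPINH1, the collagen chaperone, at 4.11 ± 0.76 (limma adjusted p = 0.111). Within lines 21 rose in MM.1S, 17 in MM.1R and 13 in INA-6, and 0, 0 and 6 fell. The shares that rose were 53.8%, 43.6% and 33.3%, against 11.9%, 5.72% and 22.1% of all probe sets, and the share that fell in INA-6 was 15.4%, against 9.82%. SERPINH1 read 229.8 and 233 in MM.1S coculture, against 3.21 and 5.59 alone, 605 and 591 in MM.1R coculture, against 6.16 and 5.47 alone, and 113 and 124 in INA-6 coculture, against 29.8 and 28.5 alone. It was higher in coculture in each line, least so in INA-6. Of 25 probe sets of 9 collagen receptor genes, 0 passed, with the largest changes at ITGA2 (3.87 ± 0.51, limma adjusted p = 0.0652) and ITGB1 (2.03 ± 1.17, limma adjusted p = 0.443), which together form an integrin that binds collagen.

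Beside these stood the marker lists. Of 73 stromal marker probe sets, 6 of 3 genes rose and 0 fell, namely TGFBI (6.47 ± 0.47), FN1 (5.40 ± 0.30) and NT5E (4.66 ± 0.32), with limma adjusted p-values of 0.0253, 0.0246 and 0.0246. In this common test 0.32% of all probe sets rose. FN1, fibronectin, a matrix protein on which collagen is laid, read 2370.2 and 2419.5 in MM.1R coculture, against 42.3 and 34.8 in MM.1R alone. Of 26 myeloma marker probe sets, 0 passed, and their largest changes were FCRL5 (1.53 ± 0.33) and IRF4 (1.36 ± 0.37). Endothelial PECAM1 (-1.30 ± 0.31) and TEK (-0.45 ± 0.45) and macrophage CD163 (-0.64 ± 0.31) and CD14 (0.61 ± 0.36) did not pass either. In the tests within lines, 23 stromal probe sets rose in MM.1S, 31 in MM.1R and 21 in INA-6, and 1, 0 and 2 fell. The shares that rose were 31.5%, 42.5% and 28.8%, against 11.9%, 5.72% and 22.1% of all probe sets. Those that fell were 1.37%, 0.0% and 2.74%, against 5.28%, 1.64% and 9.82% of all. Of the myeloma probe sets 10 rose in MM.1S, 3 in MM.1R and 5 in INA-6, and 1, 0 and 6 fell, such as SLAMF7 in INA-6 (-2.43). As shares, in the same order of lines, these were 38.5%, 11.5% and 19.2% higher and 3.85%, 0.0% and 23.1% lower. Of the endothelial probe sets 0 rose and 2 fell in MM.1S, 0 moved in MM.1R and 3 fell in INA-6, among them PECAM1 in both, and 0 macrophage probe sets passed in any line. The endothelial shares that fell, of only 11 probe sets, were 18.2% in MM.1S and 27.3% in INA-6.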

How the data were processed

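The deposited table holds 1 intensity per probe set and array on a linear scale, for 12 arrays of 6 groups with 2 arrays each. Per the submitters' processing notes the intensities were made with MAS5, but the design text of the series names dChip for normalizing and modeling; which of them made the deposited intensities is not settled, and no version is given in the sources used here. Gene symbols came from the platform's annotation, and all 112 collagen symbols stood when looked up again by gene ID. No coordinates of the probes were used. Arrays hold no read depth, and their number sets the precision.

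From the deposited intensities, log2(intensity + 5) was taken, with no filter on low values, so that each of the 112 collagen probe sets had a test; 69 of them, and 35664 of all, would pass a filter of lying above the array median in at least 2 arrays. The 62 control probe sets and 1 with a missing value were left out, leaving 54612. With limma 3.58.1 in R 4.3.3, the change common to the lines was fitted on the duplicates averaged to 6 values with the line as a block (2 residual degrees of freedom), and the changes within lines and their differences on all 12 arrays with 1 mean per group (6 residual degrees of freedom). Tests were two-sided, adjusted by Benjamini-Hochberg over all 54612, with a threshold of 0.05. Nothing says that the duplicates came from separate cultures. Tables were made with Python 3.11.15 and pandas 2.3.3.

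On simulated data of 54612 probe sets, with 50 changed at each size, the common fit recovered 0% at a log2 change of 2, 42% at 4, 78% at 6 and 94% at 8, with 1 false call. The fit within MM.1S recovered 52%, 86%, 96% and 98%, with 4 false calls. The p-values of that fit measure only the spread between technical duplicates, and its recovery under spread between separate cultures was not tested.

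The members and lists were chosen with earlier results of these data known. Values per array are given for the probe set of each gene with the largest change past the common threshold, where the 3 lines had 1 sign. For chains read in cells alone in all 3 lines, values per array, in some cases not for every line, or ranges over the arrays are given. For genes whose probe sets disagreed, values are given for some probe sets, and only changes or their range for the others. Of each list, the 3 largest changes past the threshold are named, or the 2 largest where none passed. Alternatives were other amounts added before the log (1 and 16), the filter, quantile normalization, all 12 arrays without averaging, leaving out INA-6, and leaving out each array. The replicate number was also tried as a block, in the common fit without averaging.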

Additional observations from a re-analysis of the deposited data

Results flagged for a closer look

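In 24 of 112 collagen probe sets the coculture effect in INA-6 differed from the mean effect in MM.1S and MM.1R by limma's test of that difference, on the log2 scale of intensity + 5. Of these, 7 were higher (6.25% of the 112), against 14.5% of all probe sets, and 17 were lower (15.2%), against 7.99% of all. COL7A1 (204136_at) stood apart by -4.77 ± 0.39 (SE; adjusted p = 0.000113), with -0.68 in INA-6, 3.26 in MM.1S and 4.92 in MM.1R.

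Of the other 16 lower differences, some belonged to probe sets that were lower after coculture in INA-6. They were COL20A1 232638_at (-2.68, adjusted p = 0.0497), COL4A1 211981_at (-2.64, adjusted p = 0.00373), COL11A2 216993_s_at (-2.08, adjusted p = 0.0225), COL9A2 213622_at (-1.96, adjusted p = 0.00277), COL4A1 211980_at (-1.93, adjusted p = 0.0418) and COL12A1 231766_s_at (-1.23, adjusted p = 0.0242), of which 211980_at and 231766_s_at were not called within INA-6. The rest had an INA-6 effect above 0. They were COL3A1 201852_x_at (-2.79, adjusted p = 0.00993), COL5A2 221730_at (-2.36, adjusted p = 0.00324), COL1A1 202310_s_at (-2.19, adjusted p = 0.00641), COL8A2 221900_at (-1.97, adjusted p = 0.00952), COL3A1 211161_s_at (-1.63, adjusted p = 0.00816), COL12A1 225664_at (-1.59, adjusted p = 0.0155), COL16A1 204345_at (-1.35, adjusted p = 0.0167), COL4A2 211964_at (-1.16, adjusted p = 0.0464) and COL6A2 209156_s_at (-1.05, adjusted p = 0.0365). COL1A2 202403_s_at differed by -0.94 (adjusted p = 0.0405), with 4.69 in INA-6, 4.66 in MM.1S and 6.60 in MM.1R, so INA-6 stood near MM.1S and below MM.1R.

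The 7 higher differences were those of COL4A4 214602_at (3.93, adjusted p = 0.0019), COL4A5 213110_s_at (3.38, adjusted p = 0.00892), COL24A1 238732_at (3.27, adjusted p = 0.004), COL20A1 232733_s_at (2.77, adjusted p = 0.0037), COL4A3 222073_at (2.62, adjusted p = 0.00864), COL25A1 224389_s_at (2.33, adjusted p = 0.0232) and COL9A3 204724_s_at (1.56, adjusted p = 0.00768). These p-values measure the spread between duplicate arrays only.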

How the results depend on the processing

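Of the 7 collagen calls of the common test, other settings gave 13 with 1 added before the log, 0 with 16 added, 11 with the filter on low values, 4 with quantile normalization, 30 on 12 arrays without averaging and 30 without INA-6, and 0 to 10 with each array left out. For all probe sets, 176 in the main setting, these were 414, 0, 402, 45, 9558 and 6222, and 0 to 282 with each array left out. Same-numbered deviations correlated at -0.41 to 0.47 over 15 pairs of groups, 6 of them over 0.1. Within a line, r was 0.293 in MM.1S, 0.472 in MM.1R and 0.062 in INA-6. Between MM.1S and INA-6 groups it was 0.127 to 0.186. Between MM.1R groups and those of the other lines it was always negative, -0.413 to -0.142. Whether arrays of different groups were handled together, with MM.1R numbered the other way, was not tested. With the replicate number as a block, also on 12 arrays without averaging, 29 collagen probe sets and 8452 of all were called. The same fit without the block gave the 30 and 9558 above, and both count technical duplicates as replicates. Leaving out each array gave 19 to 34 calls in MM.1S (28 in the main setting), 23 to 34 in MM.1R (33), 24 to 56 in INA-6 (39), 0 to 11 for MM.1R minus MM.1S (0) and 15 to 46 for INA-6 minus the MM.1 lines (24). MM.1R minus MM.1S gave 5 with 16 added and 2 with the filter. Probe sets read alone (13) were 4 at the 75th percentile and 13 to 19 with each array left out, and those read only after coculture (7) were 11 and 7 to 9. Added after seeing the data, calls higher in each line (19) ran from 16 to 21, and 18 with the replicate block, and the 25 without overlap were 25 to 29 with each array left out and 33 without INA-6. The 7 called changes kept their sign in each setting. The low signal of cells alone limits the size of the rises, which moves with the amount added. The cause of the other changes was not tested.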
